A study of Mus musculus with 7 samples.

Results

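The bile duct genes *Krt7*, *Krt19*, *Sox9*, *Epcam*, *Onecut1*, *Spp1*, *Cftr*, *Pkhd1* and *Sctr* were followed in whole liver of *Rbpj*-deficient mice. The 9 genes were chosen by name, as genes of cholangiocytes and of their precursors, and each probe that the array's design names after one of them was taken. This gave 13 of the 55681 probes that are no controls. A probe was tested if every array of the one or the other genotype had measured it clearly above background. This held for 24548 probes in total and for 7 of the 13, 1 for each of 7 of the 9 genes. The *Epcam* probe, the 4 *Sctr* probes and the second *Cftr* probe were too dim for this and are given as values only.

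The *Rbpj*-/- group consisted of 3 *AlfpCre*+ *Rbpj* flox/flox mice, whose livers were cholestatic according to the labels, and the *Rbpj*+/+ group of 4 *AlfpCre*- *Rbpj* flox/flox controls without cholestasis. All 7 animals were untreated, 4 weeks old and on a C57BL/6J background, all carried the floxed allele, and each gave 1 array without pooling. *AlfpCre* is a transgene that expresses the recombinase in the epithelial lineages of the fetal liver, so that *Rbpj* is lost from hepatocytes and bile duct cells and not from blood, vessel or stromal cells. The design compares the genotypes once, and the question here is which duct genes differed between them.

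Bile ducts carry bile from the hepatocytes to the gut, and the cholangiocytes that line them adjust its water and bicarbonate. In the fetal liver both epithelial cell types arise from a common precursor, the hepatoblast. Notch signals from the portal vein mesenchyme, relayed in the nucleus by RBPJ, direct hepatoblasts at the portal vein towards the duct fate, and loss of the pathway is known to leave ducts sparse or without a lumen. In a bulk sample, fewer cells of a type and less RNA per cell cannot be told apart.

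The probes that carry the results are shown first, because every value below is the brightness of such a 60-base oligonucleotide. All have at least 1 reading frame without an inner stop codon. The *Spp1* probe is shown because it gave the clearest difference, and its capitals mark codons of the stretch behind the RGD site of osteopontin, which integrins bind once thrombin has cut the protein. In the *Cftr* probe the capitals mark the stop codon, so this probe reads the end of the coding sequence. The other probes, all in lower case, are those of the duct keratins, of *Onecut1*, and of *Epcam* and *Sctr*, whose dim signals limit what can be said about them.
*Spp1*, chr5:104868502-104868561 (mm9): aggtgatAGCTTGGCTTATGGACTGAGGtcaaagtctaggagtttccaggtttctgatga
*Cftr*, chr6:18270974-18271033 (mm9): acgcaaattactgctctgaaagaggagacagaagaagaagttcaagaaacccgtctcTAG
*Krt19*, chr11:100002392-100002451 (mm9): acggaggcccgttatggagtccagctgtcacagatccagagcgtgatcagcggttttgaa
*Krt7*, chr15:101253718-101253777 (mm9): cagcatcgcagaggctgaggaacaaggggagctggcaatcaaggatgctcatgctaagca
*Onecut1*, chr9:74710921-74710980 (mm9): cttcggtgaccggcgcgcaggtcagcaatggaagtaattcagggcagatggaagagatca
*Epcam*, not placed by the design: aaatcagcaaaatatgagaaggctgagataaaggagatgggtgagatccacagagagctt
*Sctr*, chr1:121953023-121953082 (mm9): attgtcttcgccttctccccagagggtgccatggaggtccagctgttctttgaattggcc

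Levels are given as normalized log2 intensity, the log2 of a probe's background-subtracted brightness minus the 75th percentile of its array, so that 0 is the 75th percentile and a difference of 1 is a 2-fold change. Between 41.1% and 64.9% of the probes were well above background on an array. Dim probes were brighter on the arrays of *Rbpj*+/+ animal 2 and *Rbpj*-/- animal 1, with median intensities of 18.7 and 29.6 against 4.99 to 7.75 on the other 5 arrays. Among the 13 duct probes, *Rbpj*+/+ animal 2 was the highest of its group for 8 and *Rbpj*-/- animal 1 for 9, and results are therefore also given without both. All arrays lay on 1 slide, the *Rbpj*+/+ arrays in row 1 and the *Rbpj*-/- arrays in row 2, so that row and genotype cannot be told apart. All 12 hepatocyte markers were well above background on all 7 arrays, with mean levels from 7.61 to 8.35. The brighter *Rbpj* probe was lower in *Rbpj*-/- liver by a log2 fold change of −1.13 (SE 0.24, adjusted p = 0.0115, limma with Benjamini-Hochberg adjustment), without overlap between the groups. The exons removed from the floxed allele are not given in the sources used here, so whether this probe lies inside them was not settled.

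Osteopontin rose clearly among the 9 duct genes, *Sox9* rose with a smaller margin, and no duct gene fell at the threshold. *Spp1* was 3.15-fold higher in *Rbpj*-/- liver (log2 fold change 1.66, SE 0.37, n = 3 against 4) and *Sox9* 2.49-fold higher (log2 fold change 1.32, SE 0.49). *Krt7*, *Krt19*, *Onecut1*, *Cftr* and *Pkhd1* did not pass, although the estimates of *Onecut1* and *Cftr* were well below 0. Over all tested probes, 14.3% were called higher and 19.2% lower at an adjusted p below 0.1, and the 2 of 7 higher and 0 of 7 lower duct genes are to be read against these shares. The genotypes did not overlap, with *Rbpj*-/- above, for 15.0% of all tested probes and, with *Rbpj*-/- below, for 20.6%. *Spp1* was the only tested duct gene whose genotypes did not overlap.

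**Figure D1:**
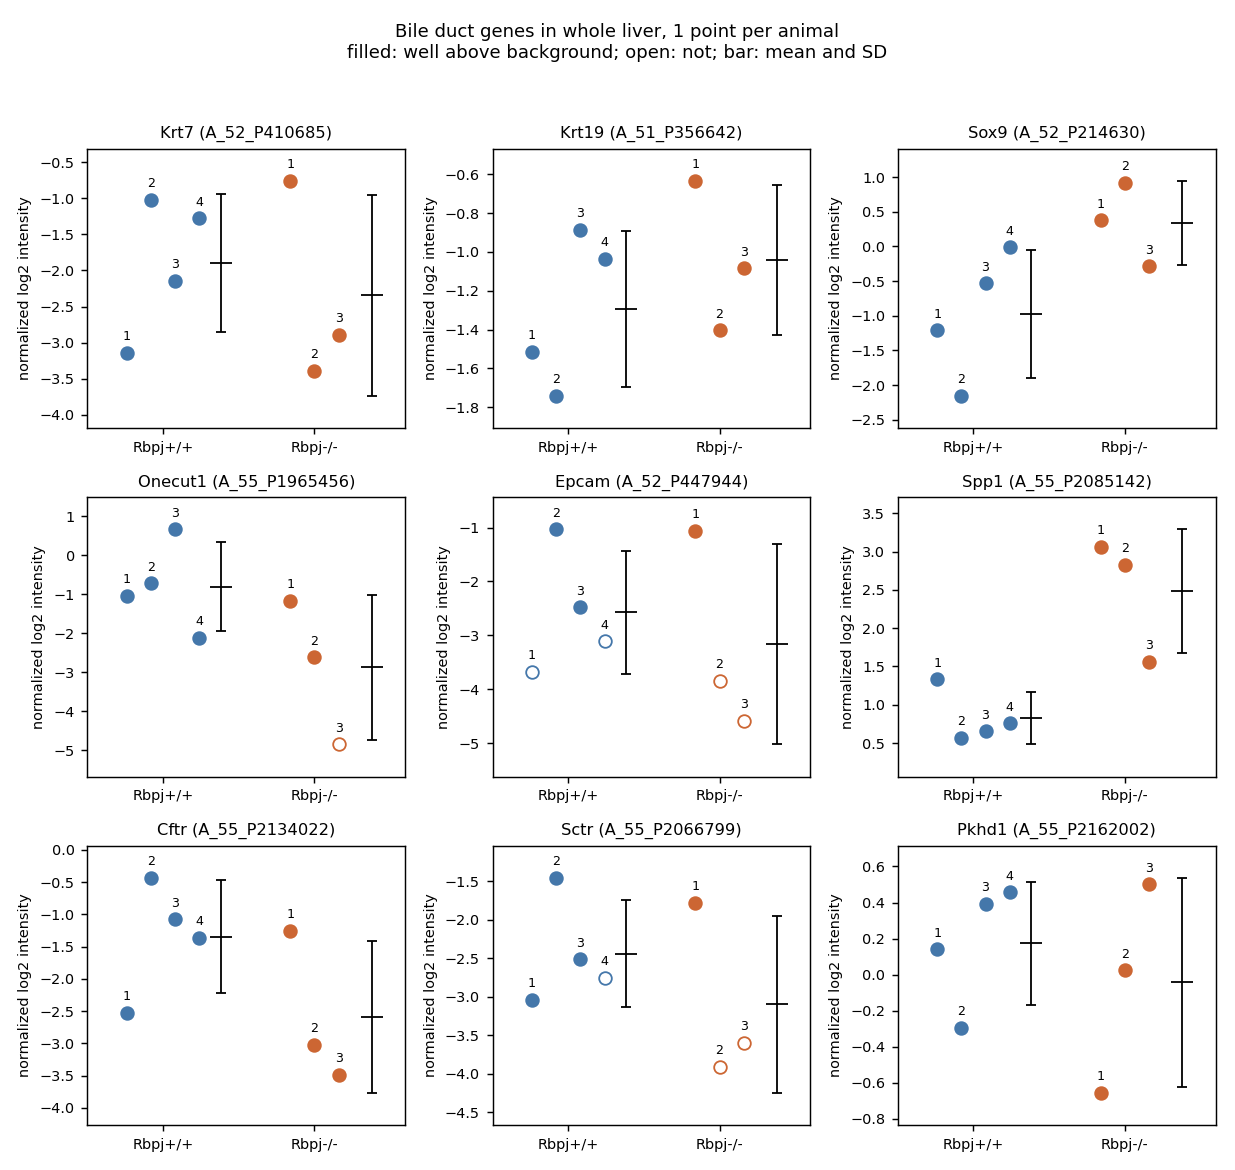
Normalized log2 intensity of the 9 duct genes, 1 panel per gene with its own scale and 1 point per animal (number beside the point). Filled points were well above background and open points were not, and the bars give mean and SD for 4 *Rbpj*+/+ and 3 *Rbpj*-/- animals. For *Cftr* and *Sctr* the brightest probe is shown. The 3 *Rbpj*-/- animals lie above all *Rbpj*+/+ animals for *Spp1* only, while for *Krt7*, *Epcam*, *Cftr* and *Sctr* the highest animal of each group is number 2 of *Rbpj*+/+ and number 1 of *Rbpj*-/-.

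The keratins *Krt7* and *Krt19* encode intermediate filament proteins that mark duct cells and are nearly absent from hepatocytes. Normalized log2 intensities of *Krt19* were −1.51, −1.74, −0.88 and −1.04 in *Rbpj*+/+ animals 1 to 4 and −0.64, −1.40 and −1.08 in *Rbpj*-/- animals 1 to 3. The ranges of the groups overlapped, with *Rbpj*-/- animal 1 above all controls and *Rbpj*+/+ animals 1 and 2 below all *Rbpj*-/- animals, and the difference was 0.25 (SE 0.28, 95% interval −0.38 to 0.88, adjusted p = 0.532, limma). On the linear scale this interval reaches from 0.77-fold to 1.85-fold, so a larger change of *Krt19* in either direction lies outside it. The estimate was below 0 after normexp background correction (−0.01) and without the 2 arrays with brighter dim probes (−0.10).

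*Krt7* was dimmer and less even. Its normalized log2 intensities were −3.14, −1.02, −2.14 and −1.28 in *Rbpj*+/+ animals and −0.76, −3.39 and −2.89 in *Rbpj*-/- animals. The highest animal of all was *Rbpj*-/- animal 1 and the next was *Rbpj*+/+ animal 2, the 2 arrays with brighter dim probes. The difference of −0.45 had an interval from −1.99 to 1.09 (SE 0.68, adjusted p = 0.656, limma), which reaches from 0.25-fold to 2.13-fold. Without these 2 arrays it was −0.95 (adjusted p = 0.241, limma).

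*Sox9* encodes a transcription factor of the developing and mature duct that is also switched on in injured hepatocytes, and *Onecut1* (also called Hnf6) one that hepatoblasts, cholangiocytes and hepatocytes share. The array carries *Sox9* as 10 spots of 1 probe (chr11:112648809-112648868, mm9), and the SD of these spots was between 0.08 and 0.36 on the log2 scale on every array. Averaged over the spots, *Sox9* was at −1.21, −2.16, −0.53 and −0.01 in *Rbpj*+/+ animals and at 0.38, 0.92 and −0.28 in *Rbpj*-/- animals. *Rbpj*-/- animals 1 and 2 lay above all controls, while *Rbpj*-/- animal 3 fell between *Rbpj*+/+ animals 3 and 4. The means were −0.98 ± 0.93 (SD, n = 4) and 0.34 ± 0.60 (SD, n = 3), and the difference of 1.32 had an interval from 0.20 to 2.43 (adjusted p = 0.0842, limma). For *Sox9*, the exact permutation test (two-sided, all 35 splits of 7 animals into 4 and 3) gave p = 0.114.

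The *Sox9* call depended on the animals that entered. Leaving out *Rbpj*+/+ animal 1, 2 or 3 or *Rbpj*-/- animal 1 or 2 gave log2 fold changes from 0.92 to 1.46 and adjusted p from 0.112 to 0.251 (limma). It was also lost under quantile normalization, where the difference was 1.57 (adjusted p = 0.178, limma), and without the 2 arrays with brighter dim probes, where it was 0.90 (adjusted p = 0.218, limma). The direction was the same in all 18 alternatives, with log2 fold changes from 0.69 to 1.64.

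*Onecut1* had the lowest estimate of the tested duct genes, with a wide spread. Normalized log2 intensities were −1.04, −0.72, 0.66 and −2.11 in *Rbpj*+/+ animals and −1.17, −2.63 and −4.85 in *Rbpj*-/- animals. The lowest value, in *Rbpj*-/- animal 3, was not well above background, and *Onecut1* entered the test only because all 4 *Rbpj*+/+ arrays measured it. *Rbpj*-/- animal 1 lay within the range of the controls. The difference was −2.08 (SE 0.86, 95% interval −4.02 to −0.14), and its adjusted p of 0.110 missed the threshold (limma, exact permutation p = 0.114). Without the 2 arrays with brighter dim probes the difference was −2.90 (adjusted p = 0.0833, limma). After normexp background correction it was −0.73 (adjusted p = 0.0656, limma).

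*Spp1* encodes osteopontin, a secreted matrix protein that cholangiocytes make at a high level and that macrophages and activated stellate cells make too. Normalized log2 intensities were 1.33, 0.57, 0.65 and 0.76 in *Rbpj*+/+ animals and 3.06, 2.83 and 1.56 in *Rbpj*-/- animals. The groups did not overlap, although *Rbpj*-/- animal 3 exceeded *Rbpj*+/+ animal 1 only slightly. In unnormalized intensity, the probe read between 90.5 and 258 on the *Rbpj*+/+ arrays and between 349 and 1191 on the *Rbpj*-/- arrays. The means were 0.83 ± 0.34 (SD, n = 4) and 2.48 ± 0.81 (SD, n = 3), and the difference of 1.66 had an interval from 0.82 to 2.49 (adjusted p = 0.0145, limma). The exact two-sided permutation test gave p = 0.0571, the smallest that 4 against 3 animals allow. Over 18 alternatives the log2 fold change of *Spp1* lay between 1.28 and 2.12, and it passed in 17. It did not pass without a filter on dim probes, where the adjusted p was 0.119 for the same difference (limma). Without the 2 arrays with brighter dim probes, the difference was 1.28 (adjusted p = 0.0818, limma).

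*Epcam*, the adhesion molecule by which duct and progenitor cells are often sorted, was well above background on 2 of 4 *Rbpj*+/+ and 1 of 3 *Rbpj*-/- arrays. Its values were −3.67, −1.04, −2.48 and −3.11 in *Rbpj*+/+ animals and −1.07, −3.85 and −4.58 in *Rbpj*-/- animals. The arrays with brighter dim probes gave the highest value in each group. The values of the other 5 animals were at or near background, and no test was made.

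Of the genes of ductal secretion, *Cftr* encodes the chloride channel of the duct cell's apical membrane and *Sctr* the receptor through which secretin opens it. The *Cftr* probe at the end of the coding sequence read −2.53, −0.43, −1.07 and −1.36 in *Rbpj*+/+ animals and −1.26, −3.02 and −3.49 in *Rbpj*-/- animals. *Rbpj*-/- animals 2 and 3 lay below all controls and *Rbpj*-/- animal 1 among them. The difference was −1.24 (SE 0.60, 95% interval −2.60 to 0.12, adjusted p = 0.163, limma). Without the 2 arrays with brighter dim probes it was −1.60 (adjusted p = 0.0604, limma), and leaving out *Rbpj*-/- animal 1 alone gave −1.91 (adjusted p = 0.0465, limma). The other *Cftr* probe was well above background on 1 *Rbpj*+/+ array and no *Rbpj*-/- array.

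All 4 *Sctr* probes were dim. The brightest, shown above, was well above background on 3 *Rbpj*+/+ arrays and 1 *Rbpj*-/- array, and read −3.04, −1.45, −2.51 and −2.75 in *Rbpj*+/+ animals and −1.78, −3.91 and −3.60 in *Rbpj*-/- animals. The other 3 probes were well above background on at most 1 array of each genotype. Signals at background give no direction for *Sctr*, and no test was made.

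*Pkhd1* encodes fibrocystin, a membrane protein of the primary cilium of duct cells that is altered in recessive polycystic kidney and liver disease. Its normalized log2 intensities were 0.14, −0.29, 0.39 and 0.46 in *Rbpj*+/+ animals and −0.65, 0.02 and 0.50 in *Rbpj*-/- animals. The highest and the lowest value both came from *Rbpj*-/- livers, so the groups overlapped throughout. The difference was −0.22 (SE 0.31, 95% interval −0.91 to 0.48, adjusted p = 0.633, limma), and *Pkhd1* passed in none of 18 alternatives. Of the 7 tested genes, *Pkhd1* and *Krt19* had the narrowest intervals, from 0.53-fold to 1.39-fold and from 0.77-fold to 1.85-fold.

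**Figure D2:**
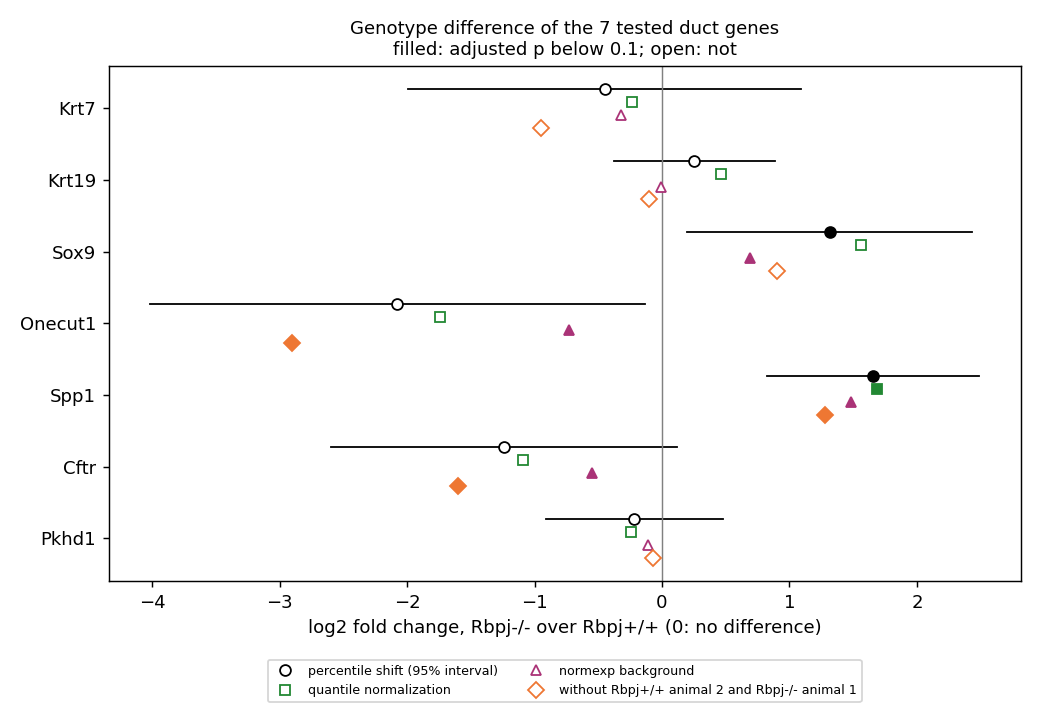
Log2 fold change of the 7 tested duct genes, *Rbpj*-/- over *Rbpj*+/+, under the percentile shift (circles, with 95% interval), quantile normalization (squares), normexp background correction (triangles) and without the 2 arrays with brighter dim probes (diamonds). Filled symbols passed an adjusted p of 0.1. *Spp1* is filled under all 4, *Sox9* under 2, *Onecut1* and *Cftr* under 2 each on the lower side, and *Krt7*, *Krt19* and *Pkhd1* under none.

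Other genes of the duct epithelium were read from a list of 46, chosen with earlier results of these data known. Of these, 34 were tested through their brightest tested probe. Among these, 14 were higher and 4 lower in *Rbpj*-/- liver, and the median log2 fold change was 0.41. Over all 18771 tested genes, 14.6% were higher and 19.6% lower, with a median of −0.13. The counts by role below are to be read against these shares. Of the 14, *Elf3*, *Cldn6*, *Vil1* and *Sstr2* were tested only because the *Rbpj*-/- arrays measured them. Among the 28 genes that all 7 arrays measured well above background, 10 were higher and 4 lower with a median of 0.39, against 2278 and 3777 of 16556 genes and a median of −0.16. The mean level of the 34 genes lay between 0.65 and 0.91 in *Rbpj*+/+ animals and between 1.40 and 1.58 in *Rbpj*-/- animals. It takes in the genes that only the *Rbpj*-/- arrays all measured, which widens the gap by the choice of genes, and was not taken over the 28 alone. Without the 2 arrays with brighter dim probes, 13 of the 34 were higher and 3 lower. The median stayed above 0 in 19 alternatives, from 0.15 to 0.57.

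Of the transcription factors, 2 of 4 tested rose and none fell. *Elf3*, an epithelial ETS factor, rose from −3.66 ± 1.22 (SD, n = 4) to 0.91 ± 0.79 (SD, n = 3), a log2 fold change of 4.57 (SE 0.63, adjusted p = 0.00238, limma). Only 2 of the 4 *Rbpj*+/+ arrays measured *Elf3* well above background, so the size of its rise rests on a dim baseline, and it was 1.61 after normexp background correction, which pulls dim values together. *Sox4*, which acts together with *Sox9* in duct development, rose by 1.42 (SE 0.29, adjusted p = 0.0105, limma).

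The genes of epithelial structure held 8 of the 14 rises, among 14 tested, and 1 fall. *Prom1*, which encodes the progenitor surface protein prominin, rose by 2.66 (SE 0.46, adjusted p = 0.0059, limma), and its second tested probe gave 2.10 (adjusted p = 0.105). *Cldn7*, a claudin of the tight junction, rose by 2.21 (SE 0.28, adjusted p = 0.00179, limma). The claudin gene *Cldn6*, which no *Rbpj*+/+ array measured well above background, was at least 1.88-fold higher under the percentile shift. Its adjusted p of 0.0235 (limma) is that of the values without this bound, which itself was not tested. After normexp background correction the log2 fold change of *Cldn6* was −0.05, so this bound does not hold there. The desmosomal cadherin *Dsg2* fell by 0.50 (SE 0.19, adjusted p = 0.0874, limma), which passed in 9 of 18 alternatives. Its other, dimmer tested probe gave −0.87 (adjusted p = 0.0129, limma). The other 5 that rose were *Krt8*, *Krt18*, *Krt23*, *Vil1* and *Cd24a*, named after their values were seen, of which *Vil1* was well above background on 2 of the 4 *Rbpj*+/+ arrays. *Krt8* and *Krt18* are keratins of hepatocytes as well as of ducts, and rose by 1.36 and 0.84. *Spint2*, a protease inhibitor of epithelia, did not pass with its brightest probe (0.30), while its other tested probe gave −0.91 (adjusted p = 0.0158, limma).

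The genes of secretion and transport split evenly, with 2 of 7 higher and 2 lower. *Itpr3*, the calcium release channel near the apical membrane of cholangiocytes, rose by 1.71 (SE 0.22, adjusted p = 0.00189, limma), and the water channel *Aqp1* by 0.76 (SE 0.21, adjusted p = 0.0338, limma). *Slc4a2*, the chloride and bicarbonate exchanger that works with *Cftr*, fell from 4.81 ± 0.21 (SD, n = 4) to 3.34 ± 0.26 (SD, n = 3), a log2 fold change of −1.47 (SE 0.21, adjusted p = 0.00273, limma). In unnormalized intensity its probe read between 1891 and 2737 on the *Rbpj*+/+ arrays, beside 17.8 to 63.4 for the brighter *Cftr* probe. Which cells of the whole liver gave the *Slc4a2* signal was not tested. *Slc12a2*, a sodium, potassium and chloride cotransporter, fell by 0.62 (SE 0.20, adjusted p = 0.0547, limma), which passed in 11 of 18. *Aqp1* is also a gene of endothelial cells, and 5 of 9 endothelial markers rose and 1 fell in the same livers, which was not tested as a source of its difference. The 5 became 3 when *Rbpj*+/+ animal 4 or any 1 *Rbpj*-/- animal was left out, and also among markers that all 7 arrays measured. The marker that fell was *Kdr*, named because its 2 tested probes differ. Its brightest probe gave −1.19 (adjusted p = 0.00689) and the other, nearly as bright, 0.01 (adjusted p = 0.973, limma).

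Among the genes of the cilium and of cysts, 1 of 7 rose and 1 fell, with a median log2 fold change of −0.13. These counts are near the shares over all tested genes, 14.6% higher and 19.6% lower. *Bicc1*, an RNA-binding protein whose loss gives cysts, rose from 1.97 ± 0.26 (SD, n = 4) to 4.65 ± 0.41 (SD, n = 3), a log2 fold change of 2.68 (SE 0.25, adjusted p = 0.000487, limma). In the secretin axis, *Sstr2*, a receptor for somatostatin, which opposes secretin, was well above background on none of the *Rbpj*+/+ arrays. It was at least 2.17-fold higher in *Rbpj*-/- liver under the percentile shift, and its adjusted p of 0.015 (limma) is that of the values without this bound. After normexp background correction its log2 fold change was 0.09, so this bound does not hold there.

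**Figure D3:**
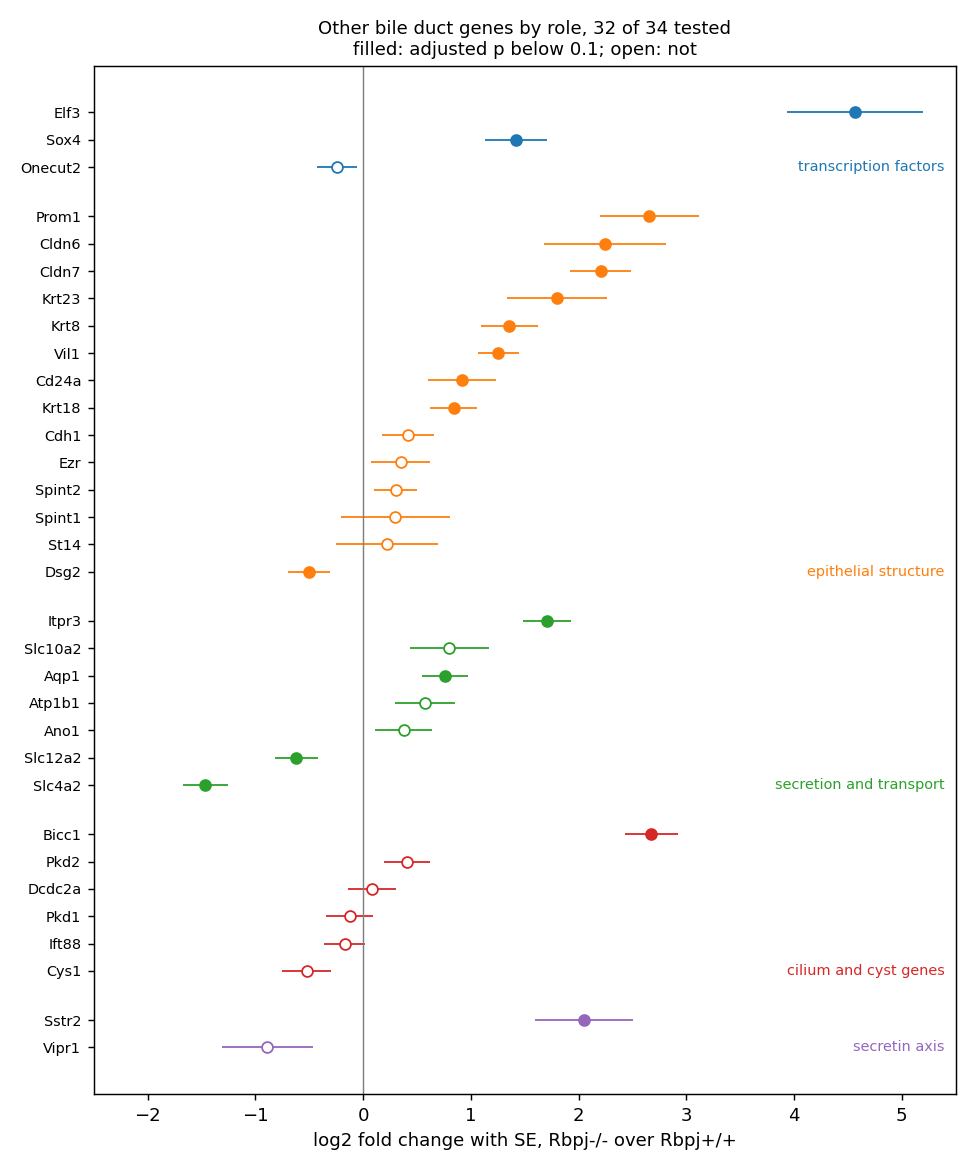
Log2 fold change with SE of 32 of the 34 tested other duct genes, *Rbpj*-/- over *Rbpj*+/+, ordered by size within each role. Filled points passed an adjusted p of 0.1 and open points did not. *Elf3*, *Bicc1* and *Prom1* lie farthest to the right, *Elf3* with 2 of 4 *Rbpj*+/+ arrays not well above background, and *Slc4a2* farthest to the left.

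The receptors of osteopontin were read because *Spp1* gave the clearest difference. Of 7 tested, 3 rose and none fell, beside 14.6% higher and 19.6% lower of all tested genes. *Itga4*, an integrin chain that binds the stretch marked in the *Spp1* probe, rose by 1.46 (SE 0.21, adjusted p = 0.00277, limma), and *Cd44* by 0.85 (SE 0.20, adjusted p = 0.0169, limma), or by 1.53 with its dimmer probe. The median over the 7 genes was 0.42, and −0.13 over all tested genes.

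Markers of other cells moved in the same livers. The counts of these lists, and of the endothelial markers above, are to be read against all tested genes, with 14.6% higher and 19.6% lower. The mean level of a list takes in all its tested genes, also those that only the arrays of 1 genotype all measured. Of 12 macrophage markers 11 rose and none fell, and their mean level lay between 1.65 and 2.28 in *Rbpj*+/+ and between 3.86 and 4.19 in *Rbpj*-/- animals. *Gpnmb*, dark on all *Rbpj*+/+ arrays and tested only because the *Rbpj*-/- arrays measured it, was at least 12.1-fold higher under the percentile shift. The adjusted p for its values without this bound was 0.00538 (limma). Over 17 alternatives the log2 fold change of *Gpnmb* lay between 1.54 and 5.45, so this bound is no minimum for all of them. *Trem2* rose by 3.50 (adjusted p = 0.00465, limma), and both are genes of activated macrophages. *Rbpj*-/- animal 3 was the lowest of the 3 *Rbpj*-/- animals for *Spp1* and *Sox9*. It was also the lowest for the mean level of the macrophage markers (3.86), the stellate and fibroblast markers (2.04) and the other duct genes (1.40). The macrophage mean takes in *Gpnmb*, at 0.41, 1.91 and −1.68 in *Rbpj*-/- animals 1 to 3. For some single macrophage markers animal 3 was the highest of the 3. It was also the highest for the mean of the hepatocyte (7.81), lymphocyte (−1.20), pancreatic acinar (0.14) and proliferation (2.48) markers. *Rbpj*-/- animal 2 was the lowest for the endothelial (1.51) and neutrophil (0.95) markers. What these ranks share with *Spp1* and *Sox9* was not tested. Of 13 stellate and fibroblast markers 9 rose and none fell, led by *Lum* (1.97, adjusted p = 0.00293) and the activation marker *Acta2* (1.70, adjusted p = 0.00603, limma), with mean levels from 1.10 to 1.44 in *Rbpj*+/+ and from 2.04 to 2.59 in *Rbpj*-/- animals. Without the 2 arrays with brighter dim probes, 11 macrophage and 7 stellate markers rose. The part of these cells in the difference of *Spp1* was not tested.

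Of 12 hepatocyte markers none rose and 7 fell, with a median of −0.68. *Apob* fell by 0.97 with its brightest probe (adjusted p = 0.00809), while its other tested probe gave 0.34 (adjusted p = 0.669, limma). *Apoa1* fell by 0.83 (adjusted p = 0.052, limma), which passed in 11 of 18 alternatives. Under quantile normalization 2 of the 12 rose and 2 fell, and after normexp background correction 3 rose and 6 fell. Their mean level ranged from 7.80 to 8.35 in *Rbpj*+/+ and from 7.61 to 7.81 in *Rbpj*-/- animals, beside the lower estimate of *Onecut1*, which hepatocytes share. All 8 tested proliferation markers rose. The 6 that all 7 arrays measured rose by 2.40 (*Birc5*) to 2.90 (*Plk1*). Only 1 of the 4 *Rbpj*+/+ arrays measured *Top2a* and *Bub1* clearly, and their log2 fold changes lay between 1.19 and 4.09 and between 0.69 and 3.39 over 17 alternatives. Of the neutrophil markers 2 of 7 rose, *S100a8* by 2.62 and *S100a9* by 2.46, and 2 fell. Without the 2 arrays with brighter dim probes none of the 7 rose or fell, and under quantile normalization none fell. Of the 2 that fell, *Csf3r*, named for its brightness, read 12852 to 23127 in unnormalized intensity on the *Rbpj*+/+ arrays. The brightest *Apob* probe read 15643 to 22897 there. The design places the *Csf3r* probe at chr19:60157892-60157951 (mm9), and neither which transcript nor which cells gave its signal was tested. Of the lymphocyte markers 5 of 6 fell, against 2 among those that all 7 arrays measured. *Ms4a1*, a B cell gene that only 1 of the 3 *Rbpj*-/- arrays measured clearly, was lower (adjusted p = 0.0143, limma), with log2 fold changes from −4.41 to −0.96 over 17 alternatives. Of the endothelial markers *Vwf* rose by 1.96 (adjusted p = 0.00251, limma). *Tek*, well above background on 2 of 4 *Rbpj*+/+ arrays, was higher (adjusted p = 0.0804, limma) with log2 fold changes from 0.06 to 1.89 over 17 alternatives, and passed in 8. Pancreatic acinar markers, which were read because pancreatic ducts use many of the same genes, were mostly too dim, and of 3 tested none rose and *Ctrb1* fell by 0.79 (adjusted p = 0.052, limma). Its genotypes overlapped, and it passed in 12 of 18 alternatives and in 3 of the 7 that left out 1 animal. The part of these cells in the results was not tested.

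**Figure D4:**
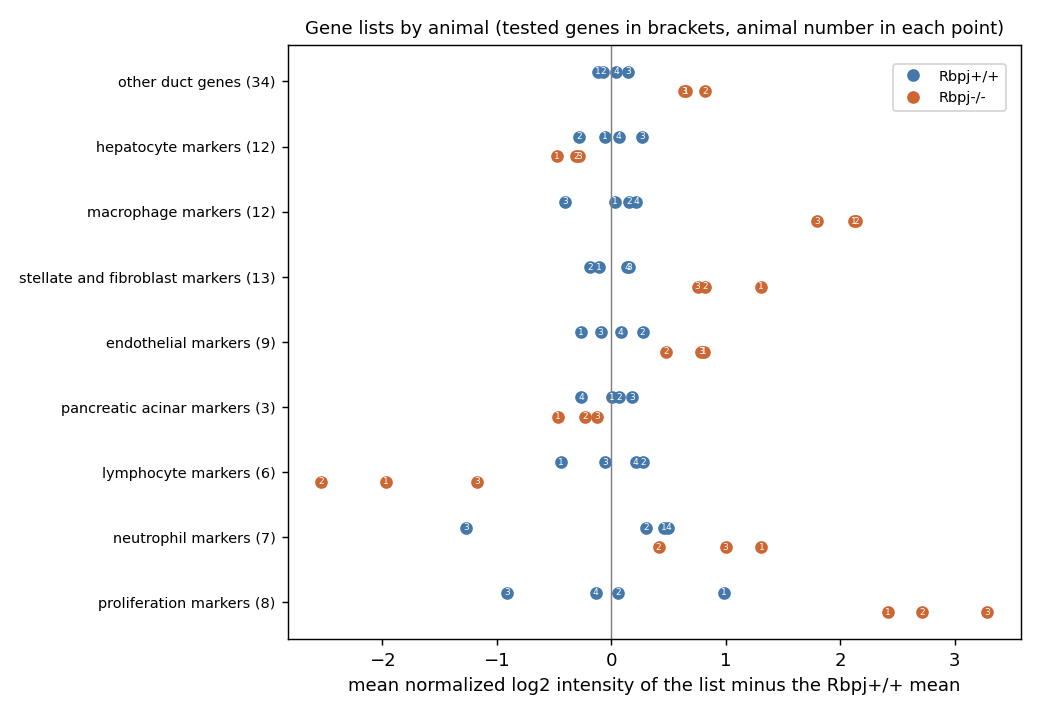
Mean normalized log2 intensity of each gene list per animal, minus the mean of the *Rbpj*+/+ animals, with the number of tested genes in brackets and the animal's number in each point. The 3 *Rbpj*-/- animals lie to the right of all *Rbpj*+/+ animals for the other duct genes and for the macrophage, stellate, endothelial and proliferation markers, and to the left for the lymphocyte markers.

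The genes whose profile over the 7 arrays was nearest to that of a duct gene were found by the root mean square difference of log2 values centred on their mean, among 18737 genes with a value on every array. For *Spp1* these were the opsin gene *Opn3*, at a difference of 0.09, and the adhesion molecule gene *Nfasc*, at 0.18. *Sox9* lay nearest to *9130221J18Rik* and *Spsb4*, at 0.22 and 0.23, and *Krt19* to the histidyl-tRNA synthetase gene *Hars*, at 0.12, and to a probe for an intergenic transcript, at 0.14. *Cftr* lay nearest to an unnamed probe, at 0.15, and to *4930466K18Rik*, at 0.23.

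Promoters were searched as a description, in RefSeq windows of build GRCm38.p6 that run from 250 bases before to 50 bases after a start. The table holds 7 windows for *Krt7*, *Onecut1*, *Epcam*, *Spp1*, *Cftr* and *Pkhd1*, 6 of the 9 genes, and *Krt19*, *Sox9* and *Sctr* have no entry. The letters TGGGAA of RBPJ sites, GGAATG of TEAD sites and ATCAAT of ONECUT sites were searched on both strands, the first and second sharing the letters GGAA. None was in any of the 7 windows, while 25.6%, 14.7% and 7.54% of all 32851 windows held them. This says only that these letters are not in these windows.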

How the data were processed

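RNA of whole liver from 7 mice was measured on 1-colour arrays, 1 per animal. The deposited intensity values are spot signals that the authors background-subtracted and detrended with Agilent Feature Extraction 10.7.3.1 (submitters' processing notes), not normalized between arrays. The deposited log2 values of the series matrix were normalized and centred per probe by the authors. They correlate at 1.00 with quantile-normalized and at 0.776 to 0.876 with percentile-shifted intensities on each array, so they served as an alternative.

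Controls were dropped, as were spots that Feature Extraction marked non-uniform or population outlier (146 probe values). None was saturated. Repeated spots (432 probes) were averaged as log2, from which each array's 75th percentile was then subtracted. A probe counted as well above background on an array if at least 50% of its spots were positive, significant and well above background. The genotype comparison used R 4.3.3 and limma 3.58.1, Benjamini-Hochberg adjustment over 24548 probes, and a threshold of 0.1. This replaced the shrinkage t of the methods, which was not run. A gene stands for its brightest tested probe. A gene dark in 1 genotype is given as "at least", the bright group's mean over the dim group's mean of, per array, its own value or the lowest signal well above background. That signal is the lowest of any probe on the array, not a limit of the gene's own probe. Such a bound holds under the percentile shift only. The adjusted p beside such a bound comes from the values without it. The number of arrays limits the precision. Coordinates come from the array's design (mm9). The steps were tested on simulated data. Python 3.11.15, pandas 2.3.3 and matplotlib 3.10.9 made tables and figures.

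The members, lists and tests were chosen with earlier results of these data known. Named are all members, *Rbpj*, in each role of the other duct genes the 3 called with the largest change and any called lower, in each other list the 2 called with the largest change, and 2 nearest profiles for *Krt19*, *Sox9*, *Spp1* and *Cftr* (*Epcam* was not tested). The results of 3 genes are not reported here, though list counts include them. Alternatives changed the background correction (normexp, offset 50), the normalization (quantile, or the percentile over probes detected on all arrays), the filter (none, or detection on all 7 arrays), the spots (outliers kept), the model (limma-trend or array weights), the threshold (0.05), the values (series matrix, or the mean of a gene's probes) and the animals (each left out, and both arrays with brighter dim probes left out).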

Additional observations from a re-analysis of the deposited data

Results flagged for a closer look

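In the *Rbpj*+/+ group, 2 of the 13 duct probes had a value far from the other 3 animals, where the gap to the nearest animal divided by the whole range exceeded Dixon's critical value at the 95% level. Both are *Sctr* probes, A_55_P2161400 with a ratio of 0.913 and A_66_P111090 with 0.872, and in both *Rbpj*+/+ animal 2, whose array had brighter dim probes, was the high one. Chance gives about 1 such value in 20 groups, and neither probe was well above background on enough arrays to be tested.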

How the results depend on the processing

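The number of arrays and the dim signals of *Epcam*, *Sctr* and *Krt7* limit the results, and 4 against 3 animals allow no exact p under 0.0571. *Krt7*, *Krt19* and *Pkhd1* passed in no alternative, *Spp1* in 17 of 18, *Sox9* in 7 of 18, *Onecut1* in 5 of 17 and *Cftr* in 5 of 18. Of the 9 duct genes, 2 were called higher and 0 lower. Higher calls numbered 1 under quantile normalization, array weights, the series matrix, a threshold of 0.05 and without both arrays with brighter dim probes, 0 without a filter on dim probes, and 1 to 2 with an animal left out. Lower calls numbered 2 under normexp background correction (*Onecut1* and *Cftr*) and without both arrays with brighter dim probes (the same genes), 1 under limma-trend and array weights, and 0 to 2 with an animal left out. Over all probes, 3522 were called higher and 4719 lower, against 1190 and 848 without a filter on dim probes, where more probes are adjusted for, and 3047 lower at 0.05. With an animal left out these counts ranged from 2345 to 3529 and from 2533 to 5471, the lowest of each without *Rbpj*-/- animal 2, and 2803 were lower without *Rbpj*+/+ animal 3. Of the other duct genes, 14 were higher and 4 lower, against 7 and 2 without a filter on dim probes, 2 lower at 0.05, and 12 to 14 higher and 2 to 4 lower with an animal left out (2 without *Rbpj*+/+ animal 3 or 4 or *Rbpj*-/- animal 2). The causes of the other shifts were not tested. No paired analysis was possible because the labels give the groups no shared replicate numbers.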
